A study of Mus musculus with 6 samples.

Results

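The Schlafen genes studied here are Slfn1, Slfn2, Slfn3, Slfn4, Slfn5, Slfn8 and Slfn9, the 7 members taken by their symbols in the GENCODE M21 mouse annotation out of 55450 genes listed. All 7 passed the filter on low counts, which kept 15610 genes. The 6 bulk RNA-seq libraries were made from sorted long-term hematopoietic stem cells, or LT-HSCs, of 3 wild-type male C57/Bl6 mice aged 22 to 24 months. The cells were sorted as Lin-, Sca1+, cKit+, CD48- and CD150+. CD61High libraries (n = 3) hold the 10% of these cells with the most surface CD61, the integrin beta 3 chain, and CD61Low libraries (n = 3) the 10% with the least, with 5000 cells in each. Age, sex, strain, genotype and the LT-HSC gate are shared by both groups, and there is no group of young mice. The titles give each library to a single mouse, whereas the protocol speaks of pools. Without pairing by mouse, the p-values weigh the difference between groups against the spread of libraries within a group. With the mouse as a block, they weigh it against how much that difference varies between mice.

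Schlafen proteins share an N-terminal core that in several members binds or cuts RNA, and many of the genes are induced by interferons. The mouse family falls into short members that are little more than the core (Slfn1 and Slfn2), intermediate members (Slfn3 and Slfn4), and long members with an added helicase-like C-terminal part (Slfn5, Slfn8 and Slfn9). The family was named after the German word for sleep, because forced expression of Slfn1 held back the growth of cells, and loss of Slfn2 makes T cells and monocytes leave quiescence.

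The 7 genes lie in a single cluster on chromosome 11 (GRCm38) together with the pseudogene Slfn10-ps and with Slfn14, which encodes a ribosome-bound endoribonuclease known from platelets and red cell precursors. From left to right stand Slfn5 (82951349 to 82964840, plus strand), Slfn9 (82978390 to 82991830, minus strand), Slfn8 (83002158 to 83020810, minus strand), Slfn10-ps (83028130 to 83040042, minus strand) and Slfn2 (83065112 to 83070678, plus strand). They are followed by Slfn1 (83116849 to 83122670, plus strand), Slfn4 (83175186 to 83190216, plus strand), Slfn3 (83191330 to 83215154, plus strand) and Slfn14 (83275110 to 83286726, minus strand). Slfn8 and Slfn9 are neighbours on the same strand. Their coding sequences are both 2730 bases long and are identical at 2531 aligned positions (92.7%). The longest stretch they share is 139 bases, bases 2540 to 2678 of both coding sequences in GENCODE M21. It is shown because reads that fall wholly inside it cannot be given to either gene.
Slfn8 and Slfn9, shared coding run: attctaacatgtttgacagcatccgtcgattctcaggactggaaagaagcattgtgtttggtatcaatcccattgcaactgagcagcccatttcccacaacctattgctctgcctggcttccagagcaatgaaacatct

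The 250 bases before the start sites of Slfn9 and Slfn8 are also alike, and they are shown because the estimates of these neighbours have opposite signs. They come from RefSeq on GRCm38.p6, where all members had an entry. With the first 50 bases after the start included, the windows of Slfn9 and Slfn8 aligned over 274 positions, of which 240 (87.6%) were identical. Capitals mark the match to the core of the interferon-stimulated response element, searched as GAAA, any 2 bases and GAAA again, on both strands.
Slfn9, chr11:82991831-82992080, minus strand: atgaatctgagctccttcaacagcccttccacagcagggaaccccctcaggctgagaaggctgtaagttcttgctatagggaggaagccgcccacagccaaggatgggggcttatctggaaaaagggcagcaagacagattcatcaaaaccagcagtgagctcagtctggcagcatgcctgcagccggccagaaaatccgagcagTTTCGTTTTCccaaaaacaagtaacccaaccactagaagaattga
Slfn8, chr11:83020811-83021060, minus strand: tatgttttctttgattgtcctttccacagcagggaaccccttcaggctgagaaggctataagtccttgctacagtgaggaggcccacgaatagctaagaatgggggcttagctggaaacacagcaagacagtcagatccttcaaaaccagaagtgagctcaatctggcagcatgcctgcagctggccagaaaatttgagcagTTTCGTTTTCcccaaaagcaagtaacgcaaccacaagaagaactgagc
The match has the same letters in both genes, beginning at position -45 of Slfn9 and -48 of Slfn8, counted back from the start site. Slfn8 has another RefSeq start site, from which the match begins at -136. Slfn5 holds another match, GAAAAAGAAA on its own strand, beginning at -155. The windows of Slfn1, Slfn2, Slfn3, Slfn4 and Slfn14 hold none. Of 32851 mouse windows from 250 bases before to 50 after a start, 1131 (3.44%) hold the core. The gamma-activated site TTCNNNGAA was in none of the members' windows and in 8.30% of all windows. These matches describe letters, not binding.

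**Figure D1:**
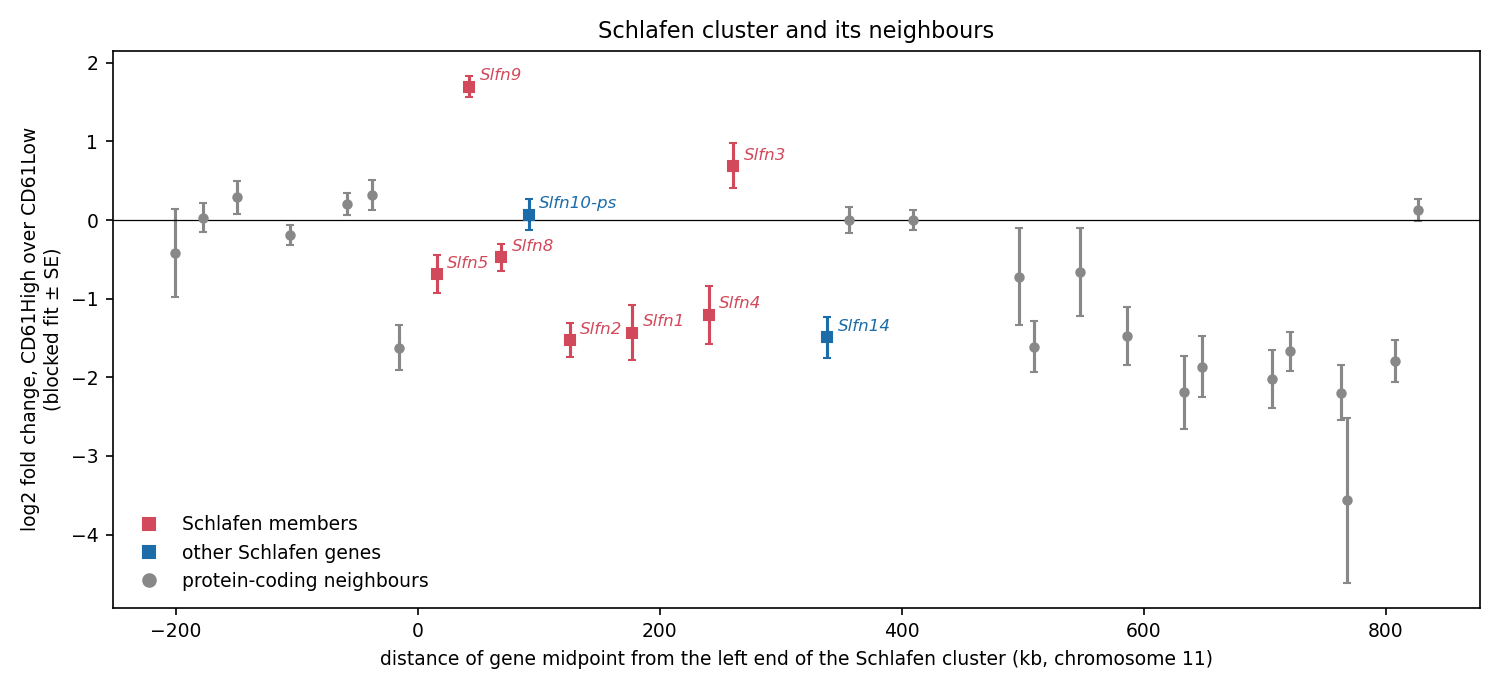
Log2 fold change of CD61High over CD61Low with the mouse as a block (y axis, bars are SE) against the distance of each gene's midpoint from the left end of the Schlafen cluster in kb (x axis); red squares are the members, blue squares the other Schlafen genes and grey points the tested protein-coding neighbours. Slfn9, at 1.70, stands beside Slfn8, at -0.47, and Slfn5, at -0.69.

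Because reads that map to several places are left out of the counts, the share of each gene that reads can be assigned to was measured on annotated transcripts. Read length is not given in the sources used here. For stretches of 75 bases, the share found in no other gene was 94.1% for Slfn9, 93.0% for Slfn8, 91.8% for Slfn5, 93.2% for Slfn3, 96.9% for Slfn4, 98.3% for Slfn2 and 100% for Slfn1. Slfn9 shared 2.62% of its stretches with Slfn8 and 4.48% with Slfn10-ps. Each member therefore keeps most of its length as its own, and reads from the shared stretches are left out in both gates. Slfn5 shares 8.84% of its exon bases with the antisense transcript Slfn5os. Adding the 2 strand-specific columns gave 453 to 1094 counts for Slfn5 where the unstranded column gave 351 to 883. The libraries do not mark strand, so this sum does not separate the 2 genes. For Slfn5os it gave 150 to 538 counts, where the unstranded column gave 0 to 4.

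Total counts on genes were 21354130 to 26398090 per library, so that the floor of 3 counts stood at 0.114 to 0.140 CPM. CPM are counts scaled to a common library size, here TMM-adjusted. All 14 LT-HSC markers had counts in all 6 libraries, with summed levels of 2938 to 5532 CPM in CD61High and 2393 to 7124 CPM in CD61Low. With the mouse as a block, 2 of the 14 were called as lower in CD61High, Procr (-1.25) and Ly6a (-1.34), which encodes Sca1. Of all 15610 genes tested, 25 were called as lower. In all 3 mice, 6 of the 14 were lower and 1 higher, Ctnnal1 (0.99 with the block, not called). Among all genes, 24.7% were lower and 20.6% higher in all 3 mice. Mouse 2 stood apart: 20 neutrophil markers summed to 81999 CPM (CD61High) and 159174 CPM (CD61Low) in its libraries, against 493 to 5461 CPM and 2111 to 21235 CPM in those of mice 1 and 3. All 20 neutrophil markers were lower in CD61High in all 3 mice (24.7% of all genes were), with a median log2 difference of -1.81 with the mouse as a block. In bulk RNA, fewer cells of a type and less RNA per cell cannot be told apart. Itgb3, which encodes CD61, averaged 191 ± 45.4 CPM over CD61High libraries and 253 ± 110 CPM over CD61Low libraries (SD, n = 3).

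On the filtered genes, Slfn9 was the only member to pass edgeR's test with the mouse as a block over all 6 libraries. Without the filter Slfn2 passed as well. Slfn9, a long member, differed by nearly the same size in each mouse. It had 80.5, 81.0 and 135 CPM in CD61High of mice 1, 2 and 3, against 26.1, 25.4 and 39.0 CPM in CD61Low of the same mice. Every CD61High library lay above every CD61Low library, and mouse 3 was the highest in both gates. The means were 98.9 ± 31.4 CPM and 30.2 ± 7.68 CPM (SD, n = 3). Within mice 1, 2 and 3 the log2 difference was 1.62, 1.67 and 1.79. With the mouse as a block, edgeR gave a log2 fold change of 1.70 (SE 0.13), or 3.24-fold, at an adjusted p of 0.0308. Without the block the estimate was 1.71 (SE 0.30), the unadjusted p 0.00118 and the adjusted p 0.652.

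Of the members, 1 of 7 was thus called with the block, where 40 of 15610 genes (0.256%) were called in either direction and 15 (0.0961%) as higher. Slfn9 was already known to be called when the members were chosen, so this share says nothing on the family as a whole. Without the block, 0 of 7 members and 0% of all genes were called by edgeR. At an unadjusted p under 0.05 that test had 1023 genes (6.55%). At an adjusted p under 0.05 and also without the block, DESeq2 called 237 genes (1.62%), Slfn9 among them, and limma voom 0 (0%). With the block, limma voom called 333 genes (2.13%), among them Slfn2 and Slfn9, and DESeq2 1566 (11.1%), among them Slfn1, Slfn2 and Slfn9. The call of Slfn9 with the block was lost without mouse 1 (adjusted p = 0.160) and without mouse 3 (0.0740), and when libraries were scaled by their totals alone (0.116). The range of its adjusted p over 27 alternative settings was 9.67e-21 to 1.00. Its estimate over those settings ran from 1.41 to 1.91.

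The summed level of markers of the megakaryocyte and platelet lineage was, like Slfn9, higher in CD61High in each mouse. The 12 markers summed to 1540, 1122 and 1708 CPM in CD61High and to 729, 431 and 997 CPM in CD61Low of mice 1, 2 and 3. Of the 10 that were tested, 3 were called as higher with the block (0.0961% of all genes were) and 7 were higher in all 3 mice (20.6% of all genes were). Clec1b was lower in all 3 mice, with groups that do not overlap, and the other 2 were mixed. The part of these markers, and of the neutrophil markers, in the difference of Slfn9 was not tested. Across the 6 libraries the genes most like Slfn9, by the root mean square distance of centred log2 CPM among 11088 genes, were Gp5 (0.18), a platelet surface glycoprotein, Gdf3 (0.24), a growth factor of the TGF-beta family, and Pls1 (0.25), an actin-bundling protein.

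**Figure D2:**
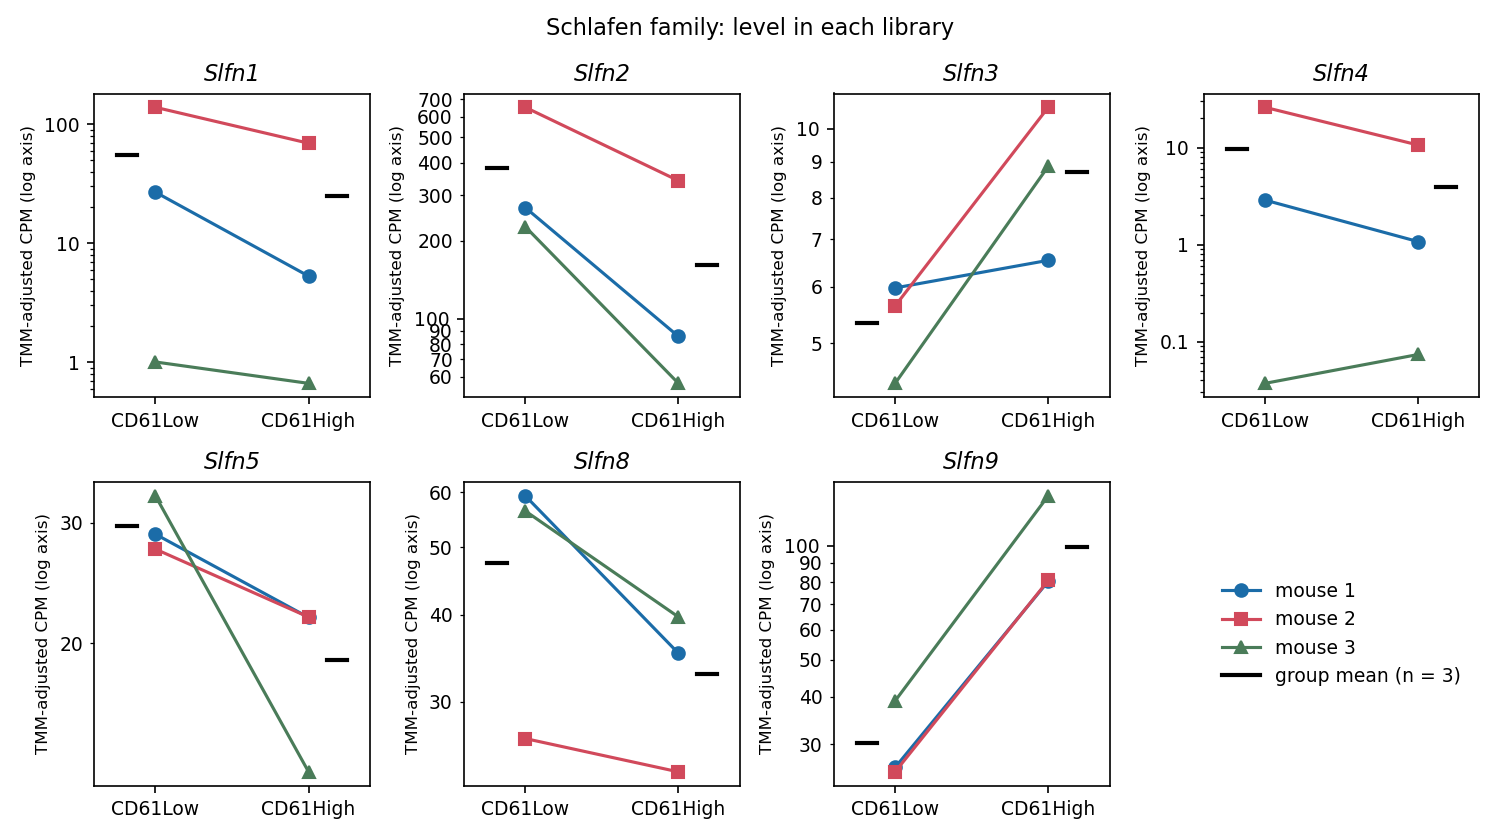
TMM-adjusted CPM (log axis) of each member in CD61Low and CD61High libraries; lines join the libraries of a mouse and black bars are group means (n = 3). Slfn9 climbs in all 3 mice, from 25.4 to 39.0 CPM up to 80.5 to 135 CPM, while Slfn1, Slfn2, Slfn5 and Slfn8 slope down in all 3.

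Slfn8, the close relative beside Slfn9, had the opposite sign. It had 35.2, 23.8 and 39.7 CPM in CD61High and 59.3, 26.6 and 56.4 CPM in CD61Low of mice 1, 2 and 3. Each mouse was lower in CD61High, but the groups overlap because CD61Low of mouse 2 lies with the CD61High libraries. The log2 difference was -0.75, -0.16 and -0.50 in the 3 mice. It did not pass the test: edgeR gave -0.53 (SE 0.36, adjusted p = 0.864) without the block and -0.47 (SE 0.17, adjusted p = 0.189) with it. The genes nearest to Slfn8 in pattern were Gpt2 (0.07), Kcns1 (0.08) and Foxred2 (0.08), with the root mean square distance in brackets.

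Seen as a share of the counts of this gene pair, Slfn9 took the larger part in CD61High and the smaller part in CD61Low. It made up 69.6% (Wilson 95% interval 67.8% to 71.3%), 77.3% (75.6% to 78.9%) and 77.3% (76.1% to 78.4%) of Slfn8 plus Slfn9 counts in CD61High of mice 1, 2 and 3. In CD61Low it made up 30.5% (28.7% to 32.4%), 48.9% (45.8% to 51.9%) and 40.9% (39.0% to 42.8%). The 3 CD61High shares lie well above the 3 CD61Low shares, and the intervals of the libraries of a mouse do not touch in any mouse. These intervals cover counting error only, and the share itself was not tested. In counts, Slfn9 stood at 2.29, 3.40 and 3.40 times Slfn8 in CD61High and at 0.440, 0.955 and 0.692 times in CD61Low. These shares and ratios are not scaled for length, and they favour Slfn9 (5.965 kb of exon) over Slfn8 (4.091 kb) in both gates. In CD61Low of mouse 2, where the counts were nearly equal, Slfn9 had 4.26 and Slfn8 6.50 CPM per kb. Slfn10-ps, the pseudogene between Slfn8 and Slfn2 that shares stretches with both long genes, had 18.5, 7.59 and 13.9 CPM in CD61High and 16.3, 7.87 and 13.2 CPM in CD61Low. Its estimate was 0.07 (SE 0.20) with the block, at an adjusted p of 0.875.

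**Figure D3:**
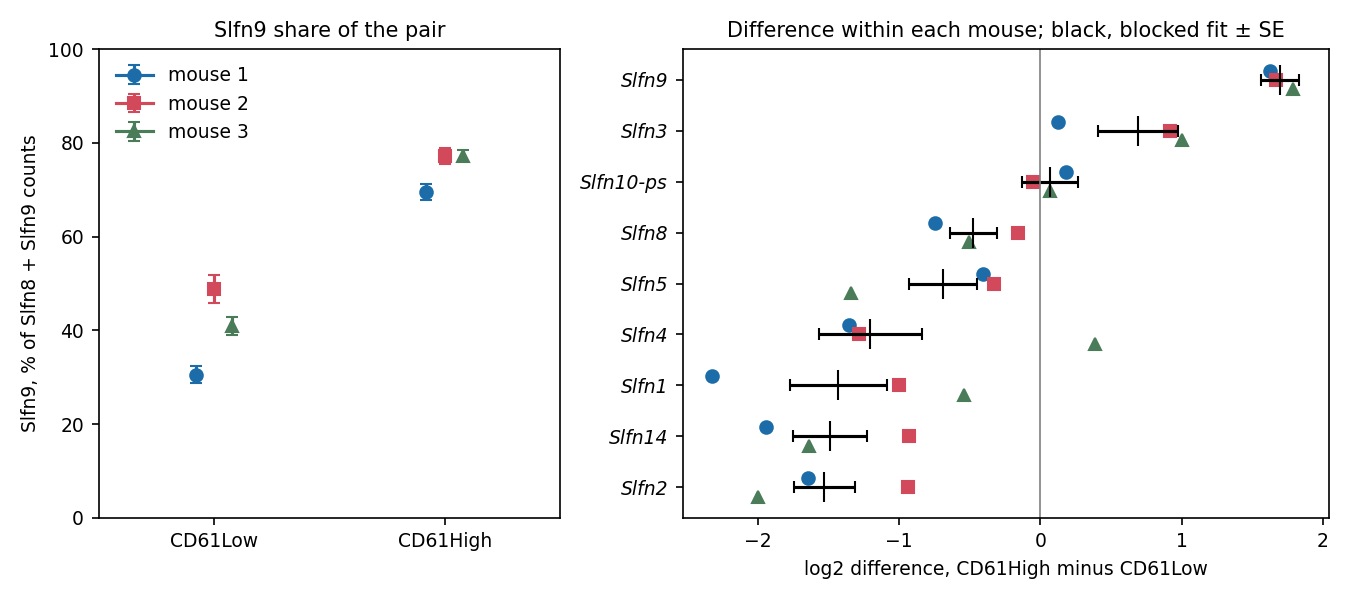
Left, Slfn9 as a percentage of Slfn8 plus Slfn9 counts in each library (points, with Wilson 95% intervals): CD61High lies between 69.6% and 77.3% and CD61Low between 30.5% and 48.9%. Right, the log2 difference within each mouse (coloured points, mice as on the left) and the blocked estimate with its SE (black) for 9 Schlafen genes, with the points of Slfn9 close together at 1.62 to 1.79.

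Slfn5, the remaining long member and a nuclear protein, was lower in CD61High without passing the test. It had 21.8, 21.8 and 12.96 CPM in CD61High and 28.9, 27.5 and 32.9 CPM in CD61Low of mice 1, 2 and 3. The groups do not overlap, but mouse 3 differs most, with a log2 difference of -1.34 against -0.40 and -0.33 in mice 1 and 2. In edgeR the estimate was -0.66 (SE 0.26, adjusted p = 0.741) without the block and -0.69 (SE 0.24, adjusted p = 0.188) with it. Without mouse 3 it was -0.37 with the block. The nearest genes in pattern were Ier2 (0.11), an immediate early gene, Peli2 (0.12), a ubiquitin ligase of Toll-like receptor signalling, and Islr (0.15).

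Slfn2, the short member tied to quiescence of T cells and monocytes, was the most abundant member per length and was lower in CD61High in all mice. It had 85.7, 341 and 56.5 CPM in CD61High and 268, 653 and 227 CPM in CD61Low of mice 1, 2 and 3. The CD61High library of mouse 2 exceeds the CD61Low libraries of the other mice, so the groups overlap. The log2 difference was -1.65, -0.94 and -2.001 in the 3 mice. With the mouse as a block edgeR gave -1.53 (SE 0.22) at an adjusted p of 0.0512, which misses the threshold, and without it -1.25 (SE 0.79) at 0.841. Without mouse 2 Slfn2 was called both with the block (-1.84, SE 0.13, adjusted p = 0.0160, among 4.77% of genes called) and without it (adjusted p = 0.0483, among 0.855%). Over the 27 settings its adjusted p ranged from 1.62e-08 to 1.00. The nearest genes in pattern were Il10ra (0.19), a receptor chain for interleukin 10, Hpn (0.21), a membrane serine protease, and Mocos (0.24), an enzyme of molybdenum cofactor maturation.

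Slfn1, the other short member, differed far more between mice than between gates. It had 5.29, 69.2 and 0.665 CPM in CD61High and 26.8, 139 and 1.01 CPM in CD61Low of mice 1, 2 and 3. Mouse 2 was highest and mouse 3 lowest in both gates, with 18 and 27 counts in the libraries of mouse 3. The log2 difference was -2.33, -1.002 and -0.54, and edgeR gave -1.43 (SE 0.35, adjusted p = 0.104) with the block and -1.15 (SE 1.93, adjusted p = 0.940) without it. Without the CD61Low library of mouse 2 the estimate reversed to 0.85. Its nearest genes were Iglc3 (0.11), an immunoglobulin light chain constant region, Ms4a4c (0.11), a membrane protein of the MS4A family, and the predicted gene Gm14548 (0.20).

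The intermediate members Slfn4 and Slfn3 are neighbours whose coding sequences are identical at 91.8% of 1779 aligned positions, and their values did not go together. Slfn4, an interferon-induced gene of myeloid cells, had 25, 244 and 2 counts in CD61High and 79, 526 and 1 counts in CD61Low of mice 1, 2 and 3. In mouse 3 both libraries lie under the floor of 3 counts, so no difference was measurable there. The log2 difference was -1.36 in mouse 1 and -1.28 in mouse 2, and edgeR gave -1.20 (SE 0.37, adjusted p = 0.144) with the block. Without the block and the CD61Low library of mouse 2, the estimate reversed to 1.42. Genes near it in pattern were Cacna1g (0.32), a calcium channel subunit, and Iglc3 (0.34), at larger distances than those given for the other members.

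Slfn3, best known from studies of intestinal epithelium and T cells, was higher in CD61High in all mice. It had 6.54, 10.7 and 8.86 CPM in CD61High and 5.98, 5.64 and 4.39 CPM in CD61Low of mice 1, 2 and 3. The groups do not overlap, yet the log2 difference was 0.13 in mouse 1 against 0.92 and 1.00 in mice 2 and 3. Slfn3 did not pass the test, with an estimate of 0.69 (SE 0.28, adjusted p = 0.238) with the block and 0.71 (SE 0.31, adjusted p = 0.752) without it. Its nearest genes were Dhx29 (0.13), an RNA helicase of translation initiation, Sec24d (0.17), a coat protein of vesicles, and Cenpj (0.18), a centriole protein.

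Among the 7 members, 2 (Slfn9 and Slfn3) were higher and 4 (Slfn1, Slfn2, Slfn5 and Slfn8) lower in all 3 mice, where 20.6% of all genes were higher and 24.7% lower in all 3. Groups without overlap were found for 2 members as higher and 1 (Slfn5) as lower, against 8.62% and 5.71% of all genes. The median log2 fold change of the members was -0.66 without the block and -0.69 with it, against -0.05 and -0.02 over all genes tested.

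Several of the genes were high where markers of mature blood cells, which the Lin- gate is meant to remove, were high. Slfn1, Slfn2, Slfn4 and Slfn14 were highest in mouse 2 and lowest in mouse 3 in both gates, as were the summed neutrophil markers. Slfn14 had 2.50, 45.1 and 0.554 CPM in CD61High and 9.81, 85.9 and 1.90 CPM in CD61Low, with an estimate of -1.49 (SE 0.26, adjusted p = 0.0648) with the block. The 14 monocyte and macrophage markers summed to 1177, 9911 and 388 CPM in CD61High and 3421, 18849 and 520 CPM in CD61Low. The 14 B lineage markers summed to 348, 3523 and 52.0 CPM in CD61High and 1069, 5131 and 64.4 CPM in CD61Low, with Pax5 and Mzb1 at 0 in CD61High of mice 1 and 3. The 13 erythroid markers summed to 3886, 18994 and 3032 CPM in CD61High and 5083, 39444 and 2803 CPM in CD61Low. Of them, 1 (Tspo2) was called as lower with the block, as were 25 of all 15610 genes tested. Of the neutrophil list, Ctsg was at 0 in CD61High of mouse 3 and the other markers had counts there. The part of these cells in the values of Slfn1, Slfn2, Slfn4 and Slfn14 was not tested.

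**Figure D4:**
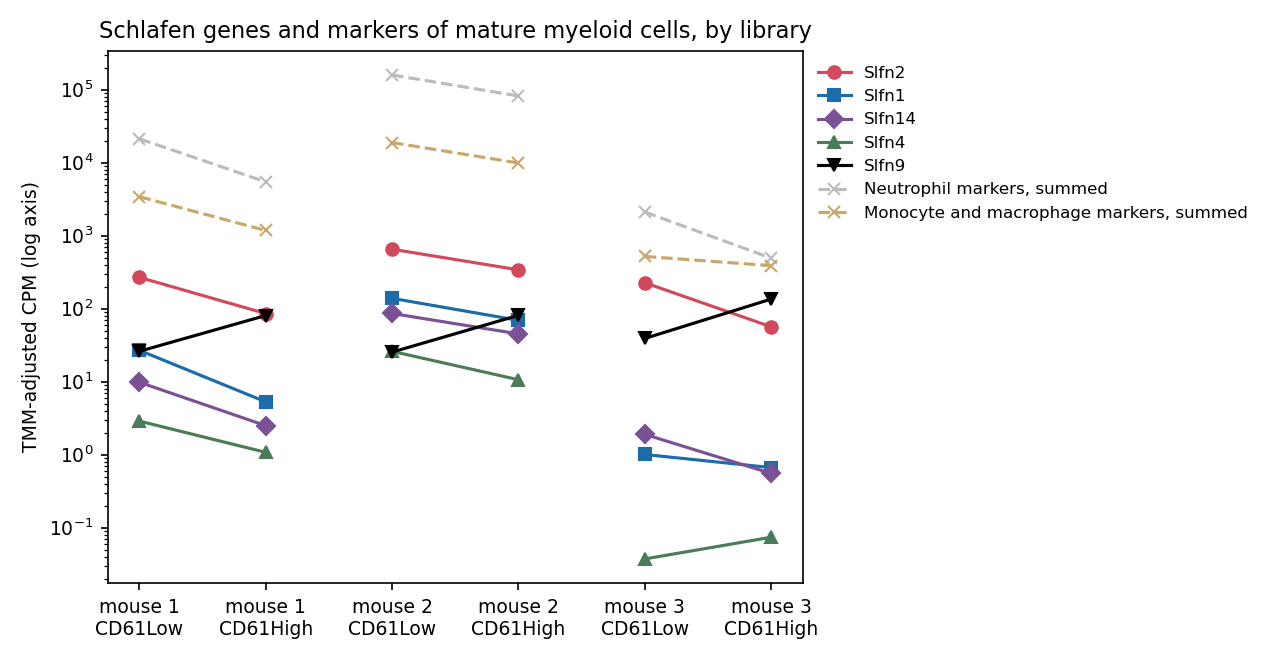
TMM-adjusted CPM (log axis) of Slfn1, Slfn2, Slfn4, Slfn9 and Slfn14 in each library beside the summed levels of neutrophil and of monocyte and macrophage markers; lines join the libraries of a mouse. Slfn1, Slfn4 and Slfn14 peak in mouse 2 with the markers, whereas Slfn9 is highest in CD61High of mouse 3 (135 CPM).

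Compared per kilobase of exon, which allows levels of different genes to be set side by side, Slfn2 led the family in all 6 libraries. In CD61High it stood at 96.7 ± 93.9 CPM per kb (SD, n = 3), followed by Slfn9 (16.6 ± 5.26), Slfn1 (13.4 ± 20.5), Slfn8 (8.05 ± 2.01), Slfn5 (2.98 ± 0.809), Slfn3 (2.55 ± 0.615) and Slfn4 (0.991 ± 1.47). Only the steps from Slfn2 to Slfn9 and from Slfn8 to Slfn5 had ranges that do not overlap. In CD61Low the order was Slfn2 (229.9 ± 141 CPM per kb), Slfn1 (29.8 ± 39.2), Slfn8 (11.6 ± 4.43), Slfn9 (5.06 ± 1.29), Slfn5 (4.70 ± 0.443), Slfn4 (2.43 ± 3.60) and Slfn3 (1.57 ± 0.245). There only the step from Slfn2 to Slfn1 had ranges without overlap. Slfn9 thus stood above Slfn8 in CD61High and below it in CD61Low, and in CD61Low the ranges of the pair overlap.

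The makeup of the family differed between gates mainly through Slfn2 and Slfn9. Slfn2 gave 36.3%, 61.1% and 22.3% of all Schlafen counts of the 7 members in CD61High of mice 1, 2 and 3, and 64.2%, 72.3% and 62.9% in CD61Low. Slfn9 gave 34.1%, 14.5% and 53.2% in CD61High and 6.23%, 2.81% and 10.8% in CD61Low. In CD61High of mouse 3 Slfn9 had more counts than Slfn2, and in the other 5 libraries Slfn2 had the most. Raw counts favour long genes such as Slfn9. Per kilobase of exon, Slfn9 gave 16.4%, 5.02% and 31.7% in CD61High and 2.17%, 0.869% and 4.00% in CD61Low. Slfn2 then gave 62.7%, 75.7% and 47.6% in CD61High and 80.0%, 80.1% and 83.3% in CD61Low, the most in every library. The summed level of the 7 members was 236, 558 and 254 CPM in CD61High and 418, 902 and 360 CPM in CD61Low.

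Since Schlafen genes are known as interferon targets, 3 lists of interferon genes were read from the same test. None of the 35 type I interferon-stimulated genes, the 20 interferon-gamma-induced genes or the 15 receptors, kinases, STATs and IRFs was called by edgeR with or without the block, where 0.256% and 0% of all genes were. The median log2 fold change with the block was -0.22, -0.24 and -0.16 in the 3 lists, against -0.02 over all genes. In all 3 mice, 5 type I genes were higher and 13 lower, 3 gamma-induced genes higher and 9 lower, and 1 gene of the signalling list higher and 9 lower. Among all genes tested, 20.6% were higher and 24.7% lower in all 3 mice. Among the best-known targets, Ifit3 stood at -1.29 (SE 0.28, adjusted p = 0.0791) and Parp14 at -0.62 (SE 0.16, adjusted p = 0.112) with the block.

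Single interferon genes had estimates of both signs, none past the test. Ifit2, an interferon-induced RNA-binding protein, averaged 46.4 ± 9.20 CPM over CD61High and 33.3 ± 3.10 CPM over CD61Low libraries (SD, n = 3), with an estimate of 0.47 (SE 0.17, adjusted p = 0.192) with the block. Tap1, a peptide transporter of antigen presentation, had 259.7 ± 16.9 CPM and 194 ± 15.4 CPM, with an estimate of 0.42 (SE 0.14, adjusted p = 0.164). The guanylate-binding protein genes Gbp9 (-1.03), Gbp4 (-1.07) and Gbp8 (-0.72) had estimates below 0, at adjusted p of 0.122 to 0.212. Mx2, a dynamin-like antiviral protein, was at 0.257 ± 0.258 CPM in CD61High and 1.34 ± 0.320 CPM in CD61Low, with an estimate of -2.54 (SE 0.77, adjusted p = 0.143). Of the signalling genes, Irf1 (-0.32), Stat2 (-0.37), Irf9 (-0.24) and Irf3 (0.24) had adjusted p of 0.249 to 0.362. These were chosen by the test without the block. With it, the lowest adjusted p of the signalling list was that of Irf8, a transcription factor of monocytes and B cells, at 0.0512 with an estimate of -1.52 (SE 0.22), and it is named after its value was seen.

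**Figure D5:**
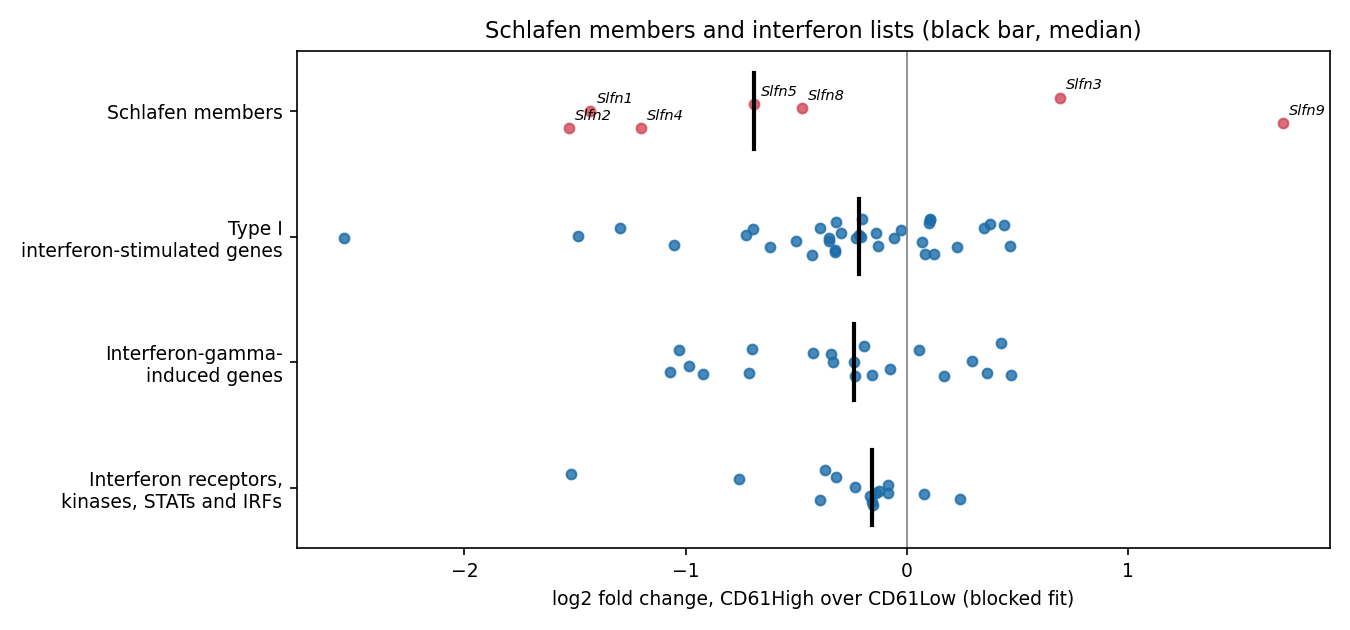
Log2 fold change of CD61High over CD61Low with the mouse as a block (x axis) for every tested gene of the Schlafen members and of the 3 interferon lists (rows); each point is a gene, its height within a row carries no value, and black bars are list medians. Slfn9, at 1.70, lies to the right of the list medians of -0.22, -0.24 and -0.16.

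The genes around the cluster were read in the same way. Of 26 protein-coding genes within 500 kb of the cluster that are not Schlafen genes, 21 were tested and 0 were called with or without the block. The median log2 fold change of the 21 was -0.72 with the block, against -0.02 over all genes. In all 3 mice, 3 were higher and 11 lower, where 20.6% of all genes were higher and 24.7% lower. Unc45b, the nearest on the left and a chaperone of muscle myosin, stood at -1.62 (SE 0.29, adjusted p = 0.0657). To the right lie chemokine genes: Ccl4 averaged 4.76 ± 1.01 CPM over CD61High and 15.1 ± 2.82 CPM over CD61Low libraries (SD, n = 3), with an estimate of -1.67 (SE 0.25, adjusted p = 0.0529).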

How the data were processed

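Bulk RNA-seq of 6 libraries was analysed, 1 CD61High and 1 CD61Low library from each of 3 mice. Per the labels' protocols, cDNA was made with SMART-Seq v4 and libraries with Nextera XT, which do not mark strand. The authors deposited raw counts per gene; STAR 2.7, MultiQC and edgeR appear in the submitters' processing notes, while the build and the annotation were not given in the sources used here. All 55450 identifiers match GENCODE M21 (GRCm38). The unstranded column was used, and the deposited series table (17500 genes) held the same values. Unmapped (4.36% to 10.9%), multimapping (10.0% to 15.6%), no-feature (2.88% to 4.21%) and ambiguous (3.55% to 4.37%) reads stayed out.

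Genes kept by filterByExpr were tested with edgeR 4.0.16 (R 4.3.3) by the quasi-likelihood test with TMM scaling, two-sided, with Benjamini-Hochberg adjustment over 15610 genes, and called at an adjusted p under 0.05. The main design had no block; the fit with the mouse as a block is given beside it. The pairing comes from the titles. Deviations from group means correlated at 0.236, 0.806 and 0.761 within mice 1, 2 and 3, against -0.823 to 0.374 between mice. Residual degrees of freedom were 4 without and 2 with the block. Log2 CPM carried a prior count of 2. DESeq2 1.42.0 and limma 3.58.1 (voom) were alternatives on the kept genes; DESeq2 gave no adjusted p for some, leaving 14664 genes without and 14096 with the block. No library pair agreed within sampling noise (over 15 pairs, chi-square per degree of freedom was at least 44.3). A count of 0 allows up to 3 counts, covering counting error only.

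The genes named are the 7 members, the other Schlafen genes, up to 4 genes per interferon list with the smallest p without the block, the nearest neighbour on each side (and any called), and the 3 genes most alike each member with a mean of at least 5 CPM. Ccl4, Itgb3, Irf8 and the single markers were added after their values were seen. A few genes that this rule names are not reported here. Slfnl1 on chromosome 4 (0 to 7 counts) and Slfn5os (0 to 4 counts) did not pass the filter. Members and lists were chosen with earlier results of these data known. Promoters are from RefSeq (GRCm38.p6); shared stretches were counted over GENCODE M21 transcripts, not the genome.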

Additional observations from a re-analysis of the deposited data

How the results depend on the processing

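Over 27 alternatives the sign of Slfn2, Slfn3, Slfn5, Slfn8 and Slfn9 did not change. Slfn1 ranged from -4.22 to 0.85 and Slfn4 from -4.07 to 1.42 when libraries or mice were left out: both reversed without the CD61Low library of mouse 2 and were lowest without its CD61High library.

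The count of genes called was 0 without the block. With the mouse as a replicate block it was 40, and 88 with relative log expression scaling, 8 with upper-quartile scaling, 0 (and 0 members) with library totals alone, 747 without the filter and 43 with the sum of the stranded columns. DESeq2 called 237, or 1566 with the block, and voom with the block 333. Leaving out libraries or mice gave 0 to 742, the highest with the block and without mouse 2 (133 without the block), and 7 with the block and without mouse 3. Of the members, 1 (Slfn9) was called with the block, with its relative log expression, upper-quartile and stranded-sum forms and by DESeq2. Without the filter and by voom, both with the block, 2 (Slfn2 and Slfn9) were called, and 3 (also Slfn1) by DESeq2 with the block. Leaving out a library or mouse gave 0 to 2 members, with 1 (Slfn2) without mouse 2 and no block. Of the interferon lists (35, 20 and 15 genes), the same settings called 2, 8 and 2 genes (without the filter, DESeq2, voom, all with the block). Leaving out mouse 2 called up to 2. Of the 26 neighbours, 21 of which passed the filter, they called 6, 9 and 5. DESeq2 without the block called 1 neighbour, and leaving out mouse 2 up to 6. Among all genes these settings called 747 of 29890, 11.1% and 2.13%. DESeq2 without the block called 1.62%, and the block without mouse 2 called 4.77%. The causes were not tested.

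The lowest share of a member found in no other gene was 91.8% for 75 bases, 84.0% for 50 and 93.6% for 100. At 1 and 2 counts, depth allows no statement on Slfn4 in mouse 3. With 3 mice, groups of 3 were too small for a check of outlying libraries.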

Other observations

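By unadjusted p, Slfn9 ranked 3 of 15610 genes in edgeR's test with the mouse as a block and 21 without it. By its mean level in CD61High it was also 3 among the 15 genes called as higher with the block. Its log2 differences in the 3 mice lay within 0.17 of each other, against 0.59 for Slfn8, 0.87 for Slfn3, 1.01 for Slfn5, 1.06 for Slfn2, 1.75 for Slfn4 and 1.78 for Slfn1. These are descriptions of these libraries, and Slfn9 was already among the genes known to be called when the members were chosen.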
